A study of Mus musculus with 6 samples.

Results

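Transcripts of 35 genes known from the spinal cord and its glia were followed in dorsal root ganglia, the clusters of sensory neuron bodies that sit on the spinal nerve roots beside the cord. The genes were taken by symbol from the 55809 gene symbols in the count files, and all 35 were found. They comprise 11 oligodendrocyte genes, 6 astrocyte genes, 10 genes of dorsal horn and inhibitory interneurons, 4 genes of motor and other cholinergic neurons, and 4 homeobox patterning factors. The ganglia came from 8-week-old C57BL6J mice, and each of the 6 libraries was a pool of 3 mice. Both sexes were used, and the sex of a pool is not stated. The 3 control pools (CT) came from offspring of undisturbed dams. The 3 prenatal stress pools (PS) came from offspring of dams restrained in tubes under bright light, 3 times a day for 30 min. The protocol places the stress from embryonic day 13 to 18 and the series design from 13.5 to 18.5, and the design counts 9 mice per group where the protocol counts 3. No genotype, transgene or postnatal treatment is given for either group.

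Oligodendrocytes wrap axons of the brain and spinal cord in myelin, while Schwann cells do so in peripheral nerves, and the change from one to the other lies on the nerve root a short way from the cord. Astrocytes and glycine- or GABA-releasing interneurons belong to the cord itself, and motor neurons send their axons out through the ventral root. A ganglion therefore has its own glia, Schwann cells and satellite cells, and some of the 35 genes are also transcribed in them or in sensory neurons. Because each value is a bulk level, fewer cells of a type and less RNA per cell cannot be told apart.

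Most of the 35 transcripts rose and fell together from pool to pool, and the difference lay between single pools rather than between the groups. Their counts made up 0.0219% of all gene counts in control pool 1, 0.0492% in control pool 2, 0.0397% in control pool 3, 0.0218% in stress pool 1, 0.0513% in stress pool 2 and 0.0247% in stress pool 3. Control pools 2 and 3 and stress pool 2 were the 3 highest pools for 28 of the 35 (80%), against 6.72% of the 20146 genes tested. Stress pool 3 came next for 22 of these 28, and control pool 1 or stress pool 1 was lowest for 26 of the 35. These 3 pools were singled out after their values were seen. Levels are counts per 1000000 (CPM) on library sizes scaled with edgeR's TMM factors.

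Markers of the ganglion itself varied less. The summed level of 8 sensory neuron markers, among them Avil, Prph, Isl1 and Scn10a, lay between 6814 and 7453 CPM, so the labelled tissue was present in every pool. That of 8 Schwann cell markers lay between 4997 and 6823 CPM. Gene counts per pool ran from 51.7 to 87.4 M. The summed level of 6 skeletal muscle markers was 2110 CPM in control pool 3 and 14.1 to 44.3 CPM in the other 5 pools, so control pool 3 stood apart in neighbouring tissue of another kind.

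**Figure D1:**
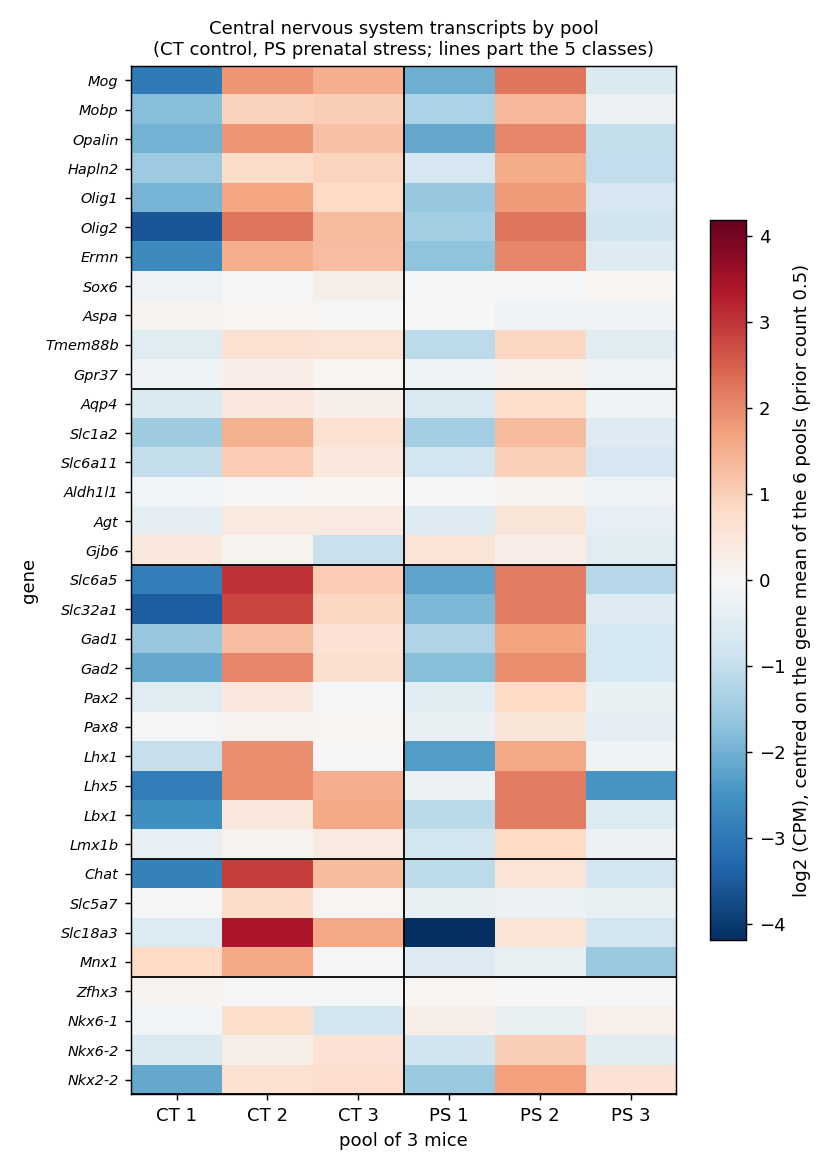
Level of each of the 35 genes (rows, by class) in each pool (columns), as log2 CPM centred on the gene's mean over the 6 pools. Control pools 2 and 3 and stress pool 2 are the 3 highest columns for 28 genes, Aldh1l1 among them, and the colours of Sox6, Aspa, Aldh1l1 and Zfhx3 are faint in every pool.

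Promoter sequences are shown for 3 oligodendrocyte genes that moved together (Mog, Opalin and Ermn) and for a gene of the same class that stayed level (Aspa). They are the 250 bases before the RefSeq transcript start on GRCm38.p6, read in the direction of transcription. The windows are chr17:37023399-37023648, minus strand for Mog, chr19:41077114-41077363, minus strand for Opalin, chr2:58052865-58053114, minus strand for Ermn and chr11:73324638-73324887, minus strand for Aspa. Capitals mark CANNTG, the E box form read by basic helix-loop-helix factors such as Olig1 and Olig2, and ACAAAG, a form read by Sox factors, each on either strand.
Mog: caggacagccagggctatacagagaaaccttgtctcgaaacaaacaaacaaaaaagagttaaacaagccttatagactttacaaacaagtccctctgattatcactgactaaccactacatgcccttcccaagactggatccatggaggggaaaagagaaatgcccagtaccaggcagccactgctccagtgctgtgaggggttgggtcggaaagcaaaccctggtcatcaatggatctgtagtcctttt
Opalin: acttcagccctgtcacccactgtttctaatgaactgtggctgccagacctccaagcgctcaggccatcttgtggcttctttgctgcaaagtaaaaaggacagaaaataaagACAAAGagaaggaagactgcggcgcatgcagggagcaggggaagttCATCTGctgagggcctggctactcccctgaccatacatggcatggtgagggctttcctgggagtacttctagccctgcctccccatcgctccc
Ermn: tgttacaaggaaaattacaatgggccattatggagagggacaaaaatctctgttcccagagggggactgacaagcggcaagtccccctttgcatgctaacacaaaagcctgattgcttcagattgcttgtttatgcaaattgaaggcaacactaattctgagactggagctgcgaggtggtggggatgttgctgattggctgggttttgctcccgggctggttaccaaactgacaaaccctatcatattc
Aspa: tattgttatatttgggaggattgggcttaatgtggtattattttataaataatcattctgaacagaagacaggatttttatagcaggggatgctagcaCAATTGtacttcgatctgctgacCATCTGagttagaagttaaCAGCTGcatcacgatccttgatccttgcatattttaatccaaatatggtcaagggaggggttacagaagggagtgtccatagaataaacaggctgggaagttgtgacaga
CANNTG was present in the windows of 22 of the 31 members with a RefSeq entry and in 66% of all 27025 genes with an entry. ACAAAG was present in 6 of the 31 and in 16.5% of all, and the homeobox core TAATTA in 0 of the 31 and in 4.9% of all. Where a gene has several starts, the first entry of the table was counted. The level gene Aspa held 3 E boxes, Opalin held 1 E box and 1 ACAAAG, and these letters were not in the windows of Mog and Ermn. Among windows not shown, for oligodendrocyte genes with the same 3 highest pools as Mog, that of Mobp held 6 ACAAAG and 0 E boxes. Those of Tmem88b, Hapln2 and Gpr37 held 2, 1 and 1 E boxes, and that of Olig2 held neither form.

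Among oligodendrocyte genes, 9 of 11 had control pools 2 and 3 and stress pool 2 as their 3 highest pools, and Sox6 and Aspa did not. Mog, the myelin oligodendrocyte glycoprotein of the outer sheath, stood at 0.259, 7.56 and 5.99 CPM in control pools 1 to 3 and at 0.504, 9.92 and 1.36 CPM in stress pools 1 to 3. The highest pool was 38.2 times the lowest, the groups overlapped fully, and the 95% exact Poisson intervals of control pool 1 (0.154 to 0.410 CPM) and stress pool 2 (9.18 to 10.7 CPM) were far apart. Intervals of this kind cover counting error only. Ermn, a cytoskeletal protein of myelin-forming cells, stood at 0.447, 8.26 and 7.07 CPM in control pools and 0.878, 11.7 and 1.96 CPM in stress pools. Opalin, a transmembrane protein of central myelin, stood at 0.115, 1.74 and 1.11 CPM and at 0.103, 1.97 and 0.232 CPM. Both repeat the order seen for Mog at the top, with stress pool 2 highest.

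Mobp, the myelin-associated oligodendrocyte basic protein, had the highest mean per length of the oligodendrocyte genes, 9.90 CPM per kb of exon against 8.2 for Aspa. In control pool 1 and stress pools 1 and 3 Aspa was higher, at 9.1, 8.3 and 7.3 against 2.1, 2.9 and 6.1 CPM per kb. Mobp stood at 14.4, 97.7 and 101 CPM in control pools and 20.1, 131 and 41.9 CPM in stress pools. Even in control pool 1, where Mog had 18 counts, it had 1000 counts, and its spread of 9.11 times was smaller than that of Mog. Mobp counts per Mog count were 12.9, 16.9 and 13.2 in control pools 2 and 3 and stress pool 2, but 55.6, 39.9 and 30.9 in control pool 1 and stress pools 1 and 3. Mobp was thus higher relative to Mog in the 3 pools that were low in Mog, which restates its narrower spread.

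The lineage factors showed a similar order. Olig2, the helix-loop-helix factor that specifies oligodendrocytes and motor neurons, had 1, 79 and 56 counts in control pools and 7, 80 and 7 counts in stress pools. That is 1.22 CPM in control pool 2 and 1.21 CPM in stress pool 2. Its paralog Olig1 ran from 0.36 CPM in control pool 1 to 4.95 CPM in stress pool 2. Hapln2, a link protein at the nodes of central axons, ran from 0.634 to 5.39 CPM in the same pools. Tmem88b, a membrane protein gene, had a narrower spread of 3.88 times, from 3.06 CPM in stress pool 1 to 11.9 CPM in stress pool 2.

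Sox6, Aspa and Gpr37 had the smallest spreads of this class. Sox6, a Sox factor that holds back oligodendrocyte maturation, lay between 7.83 and 10.8 CPM. Aspa, which splits N-acetylaspartate, stood at 54.1, 52.0 and 50.4 CPM in control pools and 49.3, 43.8 and 43.5 CPM in stress pools. Gpr37, an orphan receptor of myelinating glia, lay between 13.8 and 19.3 CPM, with control pool 2, stress pool 2 and control pool 3 highest. Their highest pools were 1.38, 1.24 and 1.40 times the lowest, against a median of 1.23 times over the 19948 tested genes with over 3 counts in every pool. The same ratio was over 2 for 21 of the 27 members with over 3 counts in every pool (77.8%) and for 15% of those genes.

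**Figure D2:**
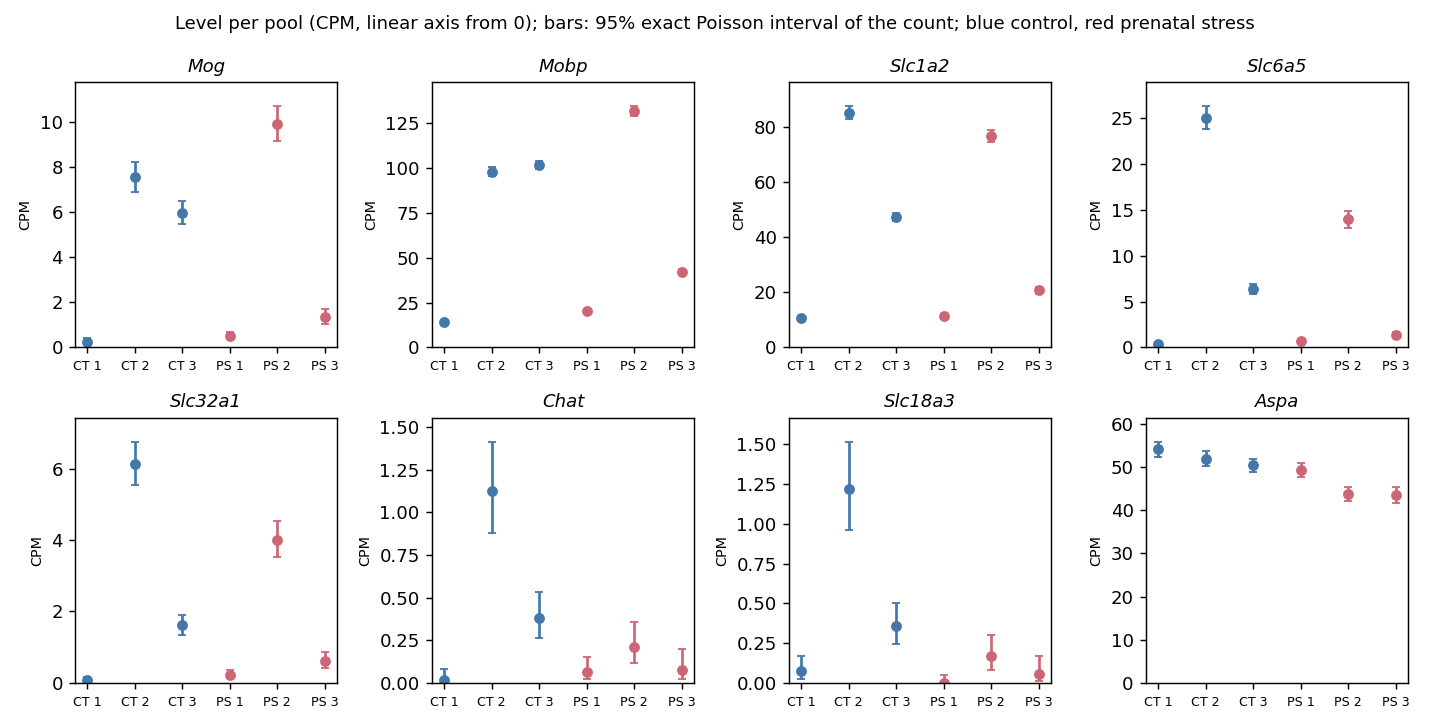
CPM per pool for 8 genes on linear axes from 0, control pools in blue and stress pools in red, with 95% exact Poisson intervals of the counts as bars. Mog and Mobp are highest in stress pool 2, Slc6a5, Slc32a1, Chat and Slc18a3 in control pool 2, and Aspa is nearly flat.

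Of the 6 astrocyte genes, 5 had the same 3 highest pools, and Gjb6 did not. Their median spread was 2.73 times, against 8.80 times for the oligodendrocyte genes. Slc1a2, the main glutamate transporter of central astrocytes, stood at 10.8, 85.1 and 47.3 CPM in control pools and 11.3, 76.5 and 20.8 CPM in stress pools, a spread of 7.89 times. The GABA transporter Slc6a11 stood at 5.68, 23.5 and 15.4 CPM and at 6.55, 22.7 and 7.05 CPM. Unlike Mog and Mobp, Slc1a2 was highest in control pool 2 rather than stress pool 2, while the Poisson intervals of Slc6a11 in these pools overlapped. Aqp4, the water channel of astrocyte endfeet, stood at 13.8, 29.1 and 25.0 CPM and at 13.4, 35.2 and 18.2 CPM. Agt, the angiotensin precursor, ran from 4.82 CPM in stress pool 1 to 9.83 CPM in stress pool 2. The highest pool was 2.64 times the lowest for Aqp4 and 2.04 times for Agt.

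Aldh1l1, a folate enzyme used as an astrocyte marker, had the smallest spread of this class, 11.0 to 13.4 CPM, with stress pool 2 highest. Gjb6, the gap junction protein connexin 30, stood at 8.76, 6.86 and 3.26 CPM in control pools and 9.19, 7.60 and 4.38 CPM in stress pools. It was highest in stress pool 1 and control pool 1, the 2 lowest pools for Slc1a2, Slc6a11, Aqp4 and Agt. The 3 meningeal transporter genes had the same 2 pools highest: Slc22a6, an organic anion transporter, stood at 3.40, 1.14 and 0.264 CPM and at 3.31, 1.55 and 1.59 CPM. Their summed level was 49.2 and 45.1 CPM in control pool 1 and stress pool 1 and 19.4 to 29.9 CPM in the other 4 pools, and their part in the Gjb6 values was not tested.

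The widest spreads among the 27 members with over 3 counts in every pool were those of 2 interneuron genes. Slc6a5, the glycine transporter of glycinergic nerve endings, stood at 0.404, 25.0 and 6.33 CPM in control pools and 0.659, 14.0 and 1.34 CPM in stress pools, so that control pool 2 was 62.1 times control pool 1. Slc32a1, which loads GABA and glycine into vesicles, stood at 0.0721, 6.12 and 1.61 CPM and at 0.232, 4.01 and 0.600 CPM, a spread of 84.9 times that rests on 5 counts in control pool 1. Both peaked in control pool 2 and were lowest in control pool 1. Of the enzymes that make GABA, Gad2 stood at 0.288, 5.44 and 2.10 CPM and at 0.374, 5.05 and 0.775 CPM. Gad1 stood at 1.15, 8.58 and 5.27 CPM and at 1.45, 11.3 and 2.09 CPM. Gad1 thus had a narrower spread, 9.83 times against 18.9 times for Gad2, and peaked in stress pool 2.

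The homeobox and paired-box factors of the dorsal cord were near the limit of detection or partly level. Lhx5 had 0, 13 and 13 counts in control pools and 3, 15 and 0 counts in stress pools. Lhx1 had 3, 24 and 8 counts and 1, 19 and 4 counts. Lbx1, which specifies dorsal interneurons, had 1, 11 and 34 counts and 4, 38 and 4 counts, and unlike Slc6a5 it was higher in control pool 3 than in control pool 2. A count of 0 allows up to 0.0432 CPM in control pool 1 and 0.0581 CPM in stress pool 3, at 3 counts. Lmx1b, a factor of excitatory dorsal horn neurons, ran from 0.955 to 2.91 CPM, Pax2, a factor of inhibitory neurons, from 0.591 to 1.52 CPM and its relative Pax8 from 1.26 to 2.35 CPM. All 10 genes of this class had control pools 2 and 3 and stress pool 2 as their 3 highest pools.

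Cholinergic neuron genes separated control pool 2 from stress pool 2, which were alike in Olig2. Chat, the enzyme that makes acetylcholine, had 1, 73 and 33 counts in control pools and 5, 14 and 4 counts in stress pools, which is 1.12 CPM in control pool 2 and 0.212 CPM in stress pool 2. Slc18a3, the vesicular acetylcholine transporter, whose gene lies within the Chat locus, had 5, 79 and 31 counts and 0, 11 and 3 counts. Both were highest in control pool 2 and next highest in control pool 3. Mnx1, a defining factor of motor neurons during development, had 3, 5 and 2 counts and 1, 1 and 0 counts. Slc5a7, the choline transporter, was present in every pool at 5.42, 9.07 and 5.66 CPM and at 4.34, 4.48 and 4.34 CPM. Control pool 2 was highest by far, and each control pool lay above each stress pool.

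Set against Mog in the same pool, some transcripts differed between pools and others did not. Slc6a5 had 3.31 counts per Mog count in control pool 2 (95% exact binomial interval 2.99 to 3.67), 1.06 in control pool 3 (0.937 to 1.19) and 1.41 in stress pool 2 (1.27 to 1.56). Chat had 0.149 counts per Mog count in control pool 2 (0.115 to 0.190), 0.0632 in control pool 3 (0.0431 to 0.0899) and 0.0214 in stress pool 2 (0.0116 to 0.0362). The intervals of these 3 pools did not overlap for either gene, nor for Slc32a1, Gad2 and Slc18a3, and this compares libraries, not conditions. Gad1, an interneuron gene too, had 1.13 counts per Mog count in control pool 2 (1.00 to 1.28) and 1.14 in stress pool 2 (1.03 to 1.27), with 0.879 in control pool 3 (0.774 to 0.999). Its intervals in control pool 2 and stress pool 2 overlapped, and that in control pool 3 lay just below both. Ermn, an oligodendrocyte gene like Mog, had 1.09, 1.18 and 1.18 counts per Mog count in these pools, with overlapping intervals. Mobp, of the same class, did not keep 1 ratio. Its interval in control pool 3 (15.5 to 18.5) lay above those in control pool 2 (11.8 to 14.2) and stress pool 2 (12.2 to 14.3). In control pool 1 and stress pools 1 and 3 the intervals were wide, as for Chat in control pool 1 (0.00133 to 0.352).

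**Figure D3:**
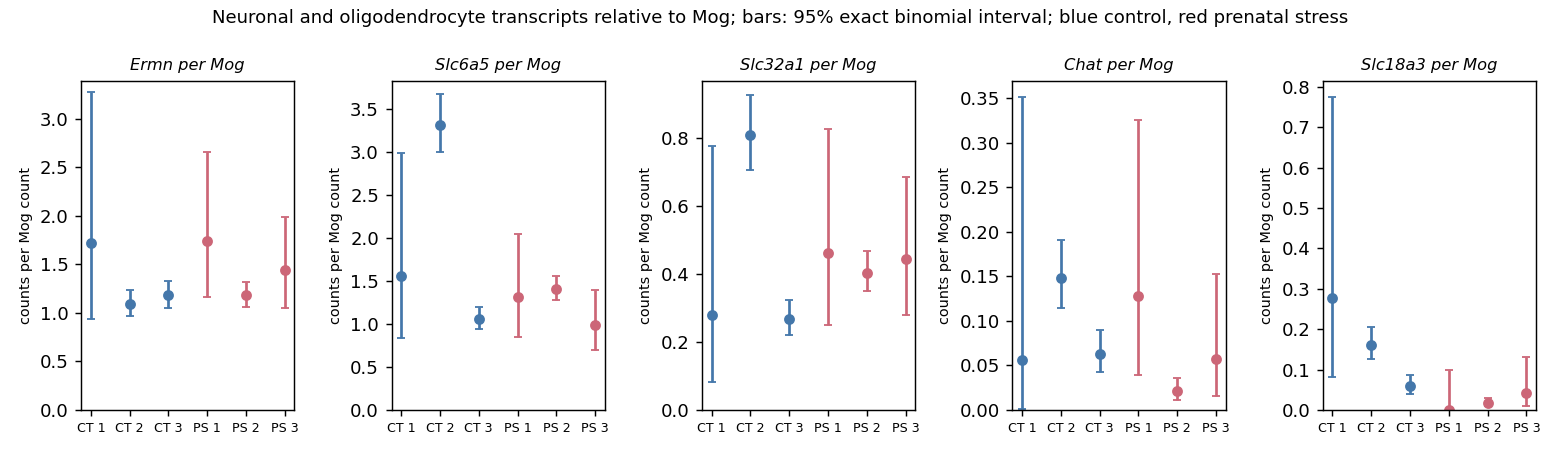
Counts of Ermn, Slc6a5, Slc32a1, Chat and Slc18a3 per Mog count in each pool (linear axes from 0, control blue, stress red), with 95% exact binomial intervals as bars. Ermn per Mog is near 1.1 to 1.2 in control pools 2 and 3 and stress pool 2, while Slc6a5 and Slc32a1 per Mog are highest in control pool 2.

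The patterning factors were mostly at low levels. Nkx6-2, a homeobox factor kept in mature oligodendrocytes, stood at 0.274, 0.508 and 0.643 CPM in control pools and 0.232, 0.880 and 0.310 CPM in stress pools. Nkx2-2, a factor of oligodendrocyte precursors and ventral neurons, had 1, 9 and 13 counts and 2, 20 and 7 counts. Nkx6-1, a ventral neuron factor, had 18, 31 and 14 counts and 26, 15 and 17 counts, so its lowest pool was control pool 3, which was high for the myelin genes. Zfhx3, a large zinc finger and homeobox factor, was level at 46.5 to 53.3 CPM, a spread of 1.15 times.

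Other central genes, from lists fixed with earlier results of these data known, gave the same split into varying and level transcripts. Of 9 further oligodendrocyte lineage genes, 7 had the same 3 highest pools. Gpr17, a receptor of committed precursors, had 5, 125 and 99 counts in control pools and 7, 170 and 17 counts in stress pools. Tnr, a matrix protein, was level at 26.3 to 32.2 CPM. Of 12 further astrocyte genes, 9 had these 3 pools highest. Gfap, the glial filament protein, stood at 9.57, 26.2 and 41.2 CPM and at 9.92, 85.1 and 13.8 CPM, so its highest value lay in stress pool 2, while Slc7a10, a serine transporter, peaked in control pool 2 at 5.31 CPM against 2.76 CPM in stress pool 2.

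Of 12 further spinal neuron genes, 2 had these 3 pools highest. Lhx4, a factor of motor neurons and some ventral interneurons, had 6, 39 and 13 counts in control pools and 8, 9 and 7 counts in stress pools, so control pool 2 stood out as it did for Chat. Of 6 ependymal genes, 0 had these 3 pools highest. Cfap126, a cilium gene, lay between 1.49 and 1.69 CPM. Dynlrb2, a dynein light chain, had 10, 17 and 12 counts in control pools and 16, 20 and 14 counts in stress pools. Its highest level, 0.303 CPM in stress pool 2, was close to the 0.271 CPM of stress pool 3. Ccdc153, singled out after its values were seen, had 3, 36 and 28 counts and 5, 3 and 2 counts, so it was low in stress pool 2, where Mog was highest.

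Of 6 microglia markers, 1 had these 3 pools highest. It was Sall1, a zinc finger factor, which ran from 0.387 CPM in stress pool 3 to 1.56 CPM in stress pool 2, a spread of 4.03 times. The summed level of the 6 markers was 45.7 to 54.3 CPM over the pools, but Olfml3 alone made up 32.3 to 39.9 CPM of it. Of 5 myelin genes that Schwann cells also transcribe, 3 had the same 3 highest pools. The spread was 1.94 times for Mag, a myelin-associated glycoprotein, with 75.5 CPM in stress pool 2, and 1.40 times for Mbp, the myelin basic protein.

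**Figure D4:**
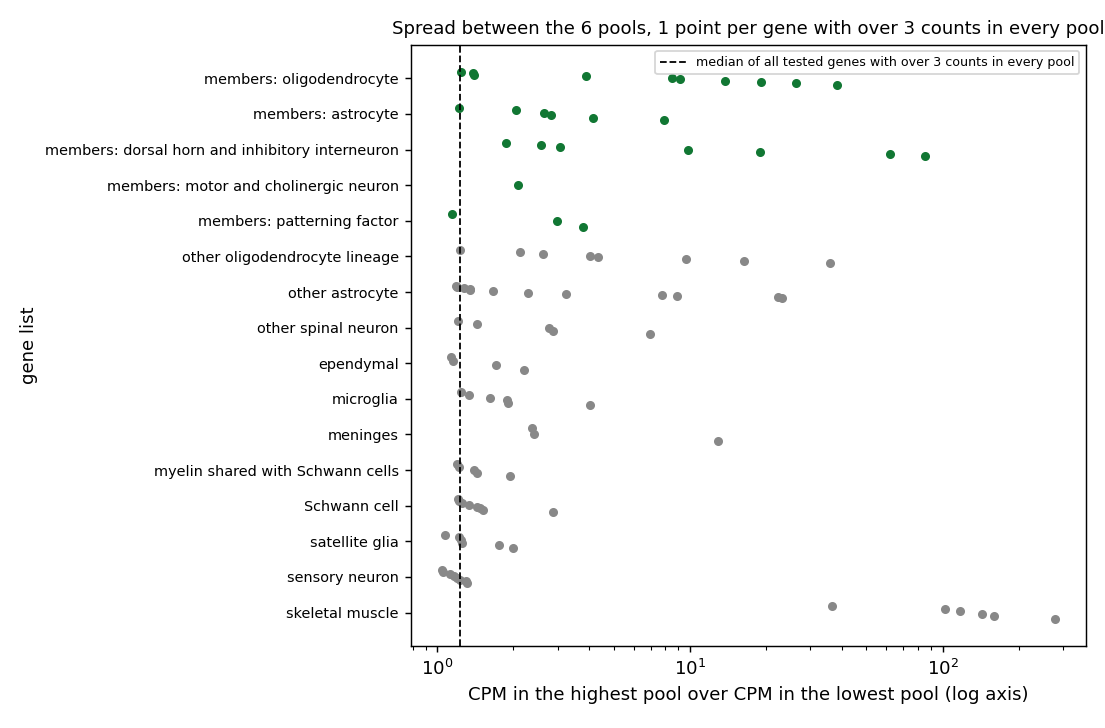
CPM in the highest pool over CPM in the lowest pool on a log axis, 1 point per gene with over 3 counts in every pool, the 35 genes in green by class and other lists in grey. Slc32a1 reaches 84.9 times, while all 8 sensory neuron markers lie under 1.31 times, and the dashed line is the median of all tested genes, 1.23 times.

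Outside all lists, genes with a mean of at least 1 CPM were ranked by how near their pool profile lay to that of Mog, Mobp, Opalin, Hapln2, Ermn and Olig2. Likeness was the Euclidean distance between centred log2 CPM values over the 6 pools, and its median over the 13824 genes considered was 4.04. The nearest was Htr2c, a serotonin receptor, at a distance of 0.775, with 0.346, 5.36 and 2.31 CPM in control pools and 0.568, 6.14 and 0.833 CPM in stress pools. The glutamate receptor subunit Grin2b followed at 0.885, then the chloride exporter Slc12a5 of central neurons at 0.914, which stood at 1.84, 25.3 and 11.2 CPM and at 2.07, 27.4 and 3.23 CPM. Among the others of the 10 nearest were Pou3f3, Grin2a, Lamp5, Prr18, Baiap3 and Fut9, at distances of 1.01 to 1.92.

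In the comparison of prenatal stress with control pools, 0 of the 32 members tested passed edgeR's quasi-likelihood test at an adjusted p under 0.05, as against 0.129% of all 20146 genes. Lhx1, Mnx1 and Nkx2-2 had too few counts to be tested. At an unadjusted p under 0.05 there were 3 members, 9.38% of those tested, against 11.1% of all genes. DESeq2 called 0 of the same members and gave no adjusted p for 9 of them. Slc5a7 and Aspa lay nearer the cut there than in edgeR (DESeq2 Wald test, adjusted p = 0.056 and 0.084). In edgeR's fit, negative values were found for 25 and positive values for 7. The median log2 fold change was -0.17 against 0.01 over all genes tested. The sign of 26 of the 32 changed when a pool was left out or with the replicate number as a block, so it describes these pools only. Without control pool 2, for example, Slc6a5 moved from -0.99 to 0.64 and Mog from -0.23 to 0.31.

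The standard errors show how the pools limit the comparison. Mog had a log2 fold change of -0.23 ± 1.22 (SE, n = 3 pools each; edgeR adjusted p = 0.965), Slc6a5 one of -0.99 ± 1.38 (edgeR adjusted p = 0.844) and Slc1a2 one of -0.40 ± 0.84 (edgeR adjusted p = 0.905). The level genes were measured far more closely, with Zfhx3 at 0.01 ± 0.06, Aldh1l1 at -0.03 ± 0.09 and Sox6 at -0.04 ± 0.12. By class, the log2 ratio of the stress to the control mean of the summed CPM was -0.16 for oligodendrocyte, -0.21 for astrocyte, -0.45 for interneuron, -0.77 for cholinergic and 0.01 for patterning genes. Such sums follow their most abundant members: Zfhx3 made up 46.5 to 53.3 CPM of the patterning sum of 47.5 to 53.9 CPM, so that ratio says little of Nkx6-1, Nkx6-2 and Nkx2-2. Likewise Slc5a7 made up most of the cholinergic sum, and Mobp and Aspa most of the oligodendrocyte sum. Without stress pool 2 the first 3 were -0.68, -0.84 and -1.87, and without control pool 2 they were 0.02, 0.19 and 0.52.

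The 3 members with an unadjusted p under 0.05 were Aspa, Slc5a7 and Slc18a3. Aspa was 52.2 ± 1.87 CPM in control and 45.5 ± 3.29 CPM in stress pools (SD, n = 3), a log2 fold change of -0.20 ± 0.06 SE (edgeR adjusted p = 0.336). Slc5a7 was 6.72 ± 2.04 CPM in control and 4.38 ± 0.0792 CPM in stress pools, -0.61 ± 0.20 (edgeR adjusted p = 0.366). Without control pool 2 it was -0.34 (edgeR adjusted p = 0.634). Slc18a3 was 0.548 ± 0.596 CPM and 0.0750 ± 0.0847 CPM, -2.86 ± 1.16 (edgeR adjusted p = 0.441), and -1.59 without control pool 2. Chat, beside it in the genome, was at -2.06 ± 1.08 (edgeR adjusted p = 0.525), and at -0.80 without control pool 2. Aspa and Slc5a7 were the tested members whose groups did not overlap, 6.25% of those tested, against 18.1% of all genes. For Aspa, markers of satellite glia lay lower in stress pools too, with 4 of 6 not overlapping between groups and 0 called. Other cell types had such genes as well. Lower in stress pools without overlap were 2 of 8 sensory neuron markers (Tubb3 and Calca), 1 of 8 Schwann cell markers (Ncmap) and 1 of 6 microglia markers (P2ry12). The part of these cells in the Aspa values was not tested.

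**Figure D5:**
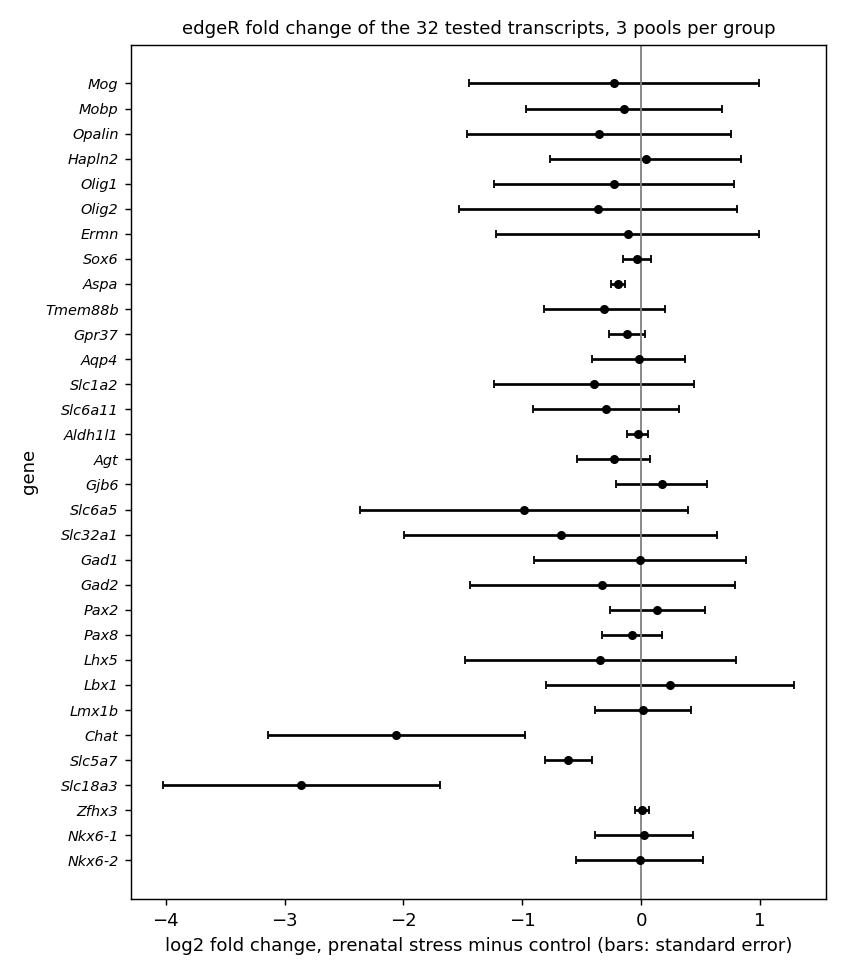
edgeR log2 fold change of prenatal stress minus control for the 32 tested genes, with standard errors as bars (3 pools per group). The bars are wide for Mog, Slc6a5 and Slc18a3 (1.22, 1.38 and 1.16) and narrow for Aspa and Zfhx3 (0.06 each), and 0 genes passed the test.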

How the data were processed

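Poly-A RNA of dorsal root ganglia was sequenced as stranded paired-end libraries, per the labels' protocols. The deposited values are raw counts of reads per gene symbol, 1 file per pool. FastQC, STAR 2.4 and HTSeq 0.9.1 and the builds GRCm39 and mm10 are named in the submitters' processing notes. The build behind the counts and the counter's strand setting: not given in the sources used here. The 5 summary rows that name no gene (15.3% to 16.2% of each file) were left out.

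Pools were grouped by their titles. No litter is given, so p-values measure the spread between pools. The test was that of edgeR 4.0.16 under R 4.3.3 (TMM, filterByExpr minimum count 10, quasi-likelihood F test, Benjamini-Hochberg over 20146 genes), and the fit was tested on simulated data. Alternatives were RLE factors, no scaling, no filter, a robust fit, DESeq2 1.42.0, the replicate block and leaving pools out. Deviations of same-numbered pools correlated at 0.327, 0.221 and 0.121 across genes. Control pool 3 and stress pool 2 correlated at 0.127, above the last of these, and other pools of different number at -0.303 to -0.0567. These values do not settle whether the numbers pair the pools. The main fit was unpaired, with the replicate block as an alternative. Within groups the chi-square per degree of freedom between pools was 11.1 to 33.53, so no pool repeats another.

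Exon lengths come from GENCODE M21, where exons of 10 members overlap another gene, 9 of them on the opposite strand. Their reads could be shared. Among coding genes the overlaps were of Ermn with Galnt5 and Nkx6-2 with Inpp5a (6.52% and 12.9% of exon bases). The largest overlap was that of Slc32a1 with the antisense gene Gm14205, 24.9% of its exon bases. Members and lists were chosen with earlier results of these data known. All members are reported by class; other genes were named where their spread was largest or smallest in a list or bore on a result, and by likeness to 6 oligodendrocyte genes (prior count 0.5). Gfap, Ccdc153 and Mbp were named after their values were seen. A few genes of these lists are not reported here.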

Additional observations from a re-analysis of the deposited data

How the results depend on the processing

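Members called stayed at 0 in all 13 alternatives. At an unadjusted p under 0.05 there were 1 to 6 members, against 3 of 32 beside 2241 of 20146 genes in the main fit. The shares over all genes at the ends of this range are not given here. The range is therefore no result about the members. With the replicate block, members under this cut were 4 of 32, beside 2428 of 20146 genes. Without control pool 1 they were 4 of 33 beside 1817 of 20555, and without control pool 2 they were 2 of 33 beside 1599 of 20630. At an adjusted p under 0.05 the count over all genes was 26 in the main fit. It was 49 without the low-count filter, 301 with DESeq2 and 1 without replicate 2 of both groups (a fit on 2 pools per group). With each pool left out in turn it was 2 to 14. With the replicate block, which would take a pairing by number into account, it was 22, and the block changed no member's call. For Slc18a3 the edgeR adjusted p was 0.106 with the block, against 0.441 in the main fit. The 9 tested members without an adjusted p in DESeq2 (Opalin, Olig2, Pax2, Lhx5, Lbx1, Chat, Slc18a3, Nkx6-1 and Nkx6-2) stay without one. Of 411 member fold changes recomputed, 338 kept their sign and 73 did not, and the cause was not tested. With the replicate block Hapln2 was at -0.063 and Lmx1b at -0.091, and without replicate 2 of both groups Hapln2, Pax2, Lmx1b and Zfhx3 were at -1.03, -0.14, -0.55 and -0.0050 on the log2 scale. With each pool left out in turn, the members that changed sign ranged over Mog -2.34 to 0.31, Mobp -1.21 to 0.28, Opalin -2.61 to 0.29, Hapln2 -1.25 to 0.42, Olig1 -1.90 to 0.52, Olig2 -2.48 to 0.49, Ermn -1.91 to 0.38, Sox6 -0.15 to 0.082, Tmem88b -1.08 to 0.028, Aqp4 -0.52 to 0.24, Slc1a2 -1.58 to 0.31, Slc6a11 -1.13 to 0.19, Aldh1l1 -0.094 to 0.041, Gjb6 -0.14 to 0.49, Slc6a5 -3.44 to 0.64, Slc32a1 -2.68 to 0.91, Gad1 -1.51 to 0.61, Gad2 -2.21 to 0.77, Pax2 -0.41 to 0.39, Pax8 -0.43 to 0.067, Lhx5 -2.27 to 0.18, Lbx1 -1.65 to 1.37, Lmx1b -0.58 to 0.31, Zfhx3 -0.029 to 0.071, Nkx6-1 -0.30 to 0.51, Nkx6-2 -0.84 to 0.33. The class ratios ranged over -0.68 to 0.084 for oligodendrocyte, -0.84 to 0.19 for astrocyte, -1.87 to 0.52 for dorsal horn and inhibitory interneuron, -0.96 to -0.38 for motor and cholinergic neuron, -0.026 to 0.066 for patterning factor. Counts were under about 10 for Lhx1, Lhx5, Lbx1, Nkx2-2, Mnx1, Olig2 and Opalin in the low pools. Slc32a1 had 5 counts in control pool 1. Chat and Slc18a3 were as low outside control pools 2 and 3 and stress pool 2. Counting error is large at such counts. Even so, the standard errors of Opalin and Olig2 (1.11 and 1.17) were near those of Ermn and Mog (1.11 and 1.22). For all members the group comparison rests on 3 pools each.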
